A study of Mus musculus with 23 samples.

Results

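The 10 genes described here included *Il6ra*, *Il6st*, *Osmr*, and *Lifr*, which are receptor genes of the IL-6 cytokine family. *Lepr* and *Il1r1* are the receptor genes for leptin and IL-1, and *Stat3*, *Cebpb*, *Cebpd*, and *Socs3* act inside the cell. All 10 were chosen by name with earlier results of these data known, and were found among the 48895 gene symbols of the count table. The RNA-seq data came from male BALB/c mice, 4 to 6 weeks old at the start, and covered 23 libraries of poly(A) RNA from bulk tissue. Pre-metastatic liver and primary tumor were taken from the same 9 mice, 3 weeks after CT26 cells had been injected into the wall of the cecum. Control liver was taken from 5 mice that had a sham operation with an injection of medium and carried no tumor. CT26 is a single mouse colon carcinoma line, so all tumors came from the same cells, and a bulk tumor also holds cells of the host. The labels give no other allele or drug. Mice are named by their label number, C1 to C7 for the sham group and M1 to M12 for the tumor-bearing group.

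Cytokines of the IL-6 family signal through the shared chain gp130, encoded by *Il6st*, together with chains used by fewer ligands, here called private. JAK kinases bound to gp130 phosphorylate the transcription factor STAT3. STAT3 switches on the gene of its own inhibitor, *Socs3*, which closes a feedback loop, and in hepatocytes it acts with C/EBPβ, C/EBPδ, and the IL-1 pathway to raise the transcription of acute-phase proteins. Leptin signals through a related receptor, encoded by *Lepr*, that does not need gp130.

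In the mouse genome (mm10) *Il6ra* lies on the minus strand at chr3:89869324-89913196, *Il6st* on the plus strand at chr13:112464070-112506860, and *Lepr* on the plus strand at chr4:101717134-101815354. *Osmr* (minus, chr15:6813568-6875249) and *Lifr* (plus, chr15:7090615-7197489) are neighbors on chromosome 15. *Il1r1* lies on the plus strand at chr1:40225014-40316201, *Stat3* on the minus strand at chr11:100886806-100939579, *Socs3* on the minus strand at chr11:117966079-117970342, *Cebpb* on the plus strand at chr2:167688915-167690432, and *Cebpd* on the plus strand at chr16:15887286-15889545. Genes on the other strand overlap *Il6ra*, *Stat3*, and *Cebpd*, and a gene model on the same strand overlaps *Il1r1*, so their reads may be shared.

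The 3 short sequences that follow are shown because they are the only promoter stretches of these genes in which the searched letters of a STAT or C/EBP element were found. The promoter windows ran from 250 bases before to 50 bases after each RefSeq gene start (GRCm38.p6), and 9 of the 10 genes had at least 1 window, 12 windows in all. No window of *Cebpd* was matched. These RefSeq starts can differ from the gene coordinates given above, and the *Socs3* stretch below lies inside the interval given for that gene. The STAT letters TTCNNNGAA, which read the same on both strands, occurred in 8.298% of 32851 promoters of this length and in the *Socs3* window at chr11:117969502-117969530 on the minus strand, starting 154 bases before the gene start (position -154). The C/EBP letters TTGCNNAA, or TTNNGCAA on the other strand, occurred in 10.8% of the promoters, in the *Il1r1* window at chr1:40224937-40224964 on the plus strand (position -133) and in a *Lepr* window at chr4:101717915-101717942 on the plus strand (position 19). Capitals mark the matched letters, and each stretch reads 5′ to 3′ on the strand of the gene.
Socs3: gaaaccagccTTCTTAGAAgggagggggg
Il1r1: cctggcacgtTTGCTGAAtgcttctggc
Lepr: cgaggaatcgTTCTGCAAatccaggtat
A match describes letters and does not show binding.

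The libraries held 51064615 to 60393702 counts in control liver, 44587556 to 79773163 in pre-metastatic liver, and 47005276 to 70884436 in the primary tumor, so that even *Lepr*, the lowest of the 10 genes in pre-metastatic liver, rested on 36 to 393 counts there. Expression levels below are RPKM (counts scaled by gene length and by the library total, so that genes can be compared), and fold changes come from the quasi-likelihood test of edgeR on counts scaled by TMM. The livers expressed hepatocyte genes as labeled, with a summed RPKM of 5 markers (*Alb*, *Ttr*, *Cps1*, *Apoa1*, *Hnf4a*) of 40357 to 49970 in control liver and 27160 to 62277 in pre-metastatic liver. In the tumors this sum was 5.37 to 244, the highest in mouse M12, and the median *Clec4f* (Kupffer cell) and *Lrat* (stellate cell) level was 0. *Alb*, the most abundant of these markers, stood at 15823 to 46034 RPKM in the livers and at 2.97 to 173 in the tumors. Scaling by library totals in place of TMM shifted the median log2 fold change of all genes by 1.18 for tumor against pre-metastatic liver and by 1.08 for tumor against control liver, but by only -0.08 between the livers. Collection times are not given in the sources used here, and the levels of 6 clock genes alone were used to divide the livers into 9 with a clock index under 0, called early, and 5 above 0, called late. The early liver nearest to 0 was M7 (-0.10), and the late phase held 4 pre-metastatic livers (M1, M2, M10, M12) but only 1 control liver (C7).

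The 10 genes spanned a wide range of levels in control liver. *Cebpb*, a transcription factor of the acute-phase response, had the highest median at 61.7 RPKM. *Stat3* (27.3), *Il6st* (23.0), *Il6ra* (17.9), and *Il1r1* (17.8) followed, with ranges that overlapped from each gene to the next. *Socs3* (9.63) and *Lifr* (8.99) overlapped as well, and *Cebpd* (4.99), *Lepr* (0.961), and *Osmr* (0.601) closed the order, each overlapping with the next. In pre-metastatic liver *Cebpb* (84.6), *Stat3* (43.0), and *Il6st* (30.4) kept the top of the order, and *Lepr*, at 0.137, had moved below *Osmr*, at 2.05, with no overlap between the ranges of that pair. The ranges of *Cebpb*, *Stat3*, and *Il6st* overlapped there. The tumors had another order of medians, in which *Cebpd*, the partner of C/EBPβ, stood at 48.2 and *Socs3* at 33.3, behind *Cebpb* at 106 and ahead of *Stat3* at 30.4, while *Lifr* stood at 0.693 and *Lepr* at 0.414. The tumor ranges of *Cebpd* (16.9 to 61.9), *Socs3* (25.3 to 43.6), and *Stat3* (26.0 to 34.7) overlapped, as did those of *Lifr* and *Lepr*.

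**Figure D1:**
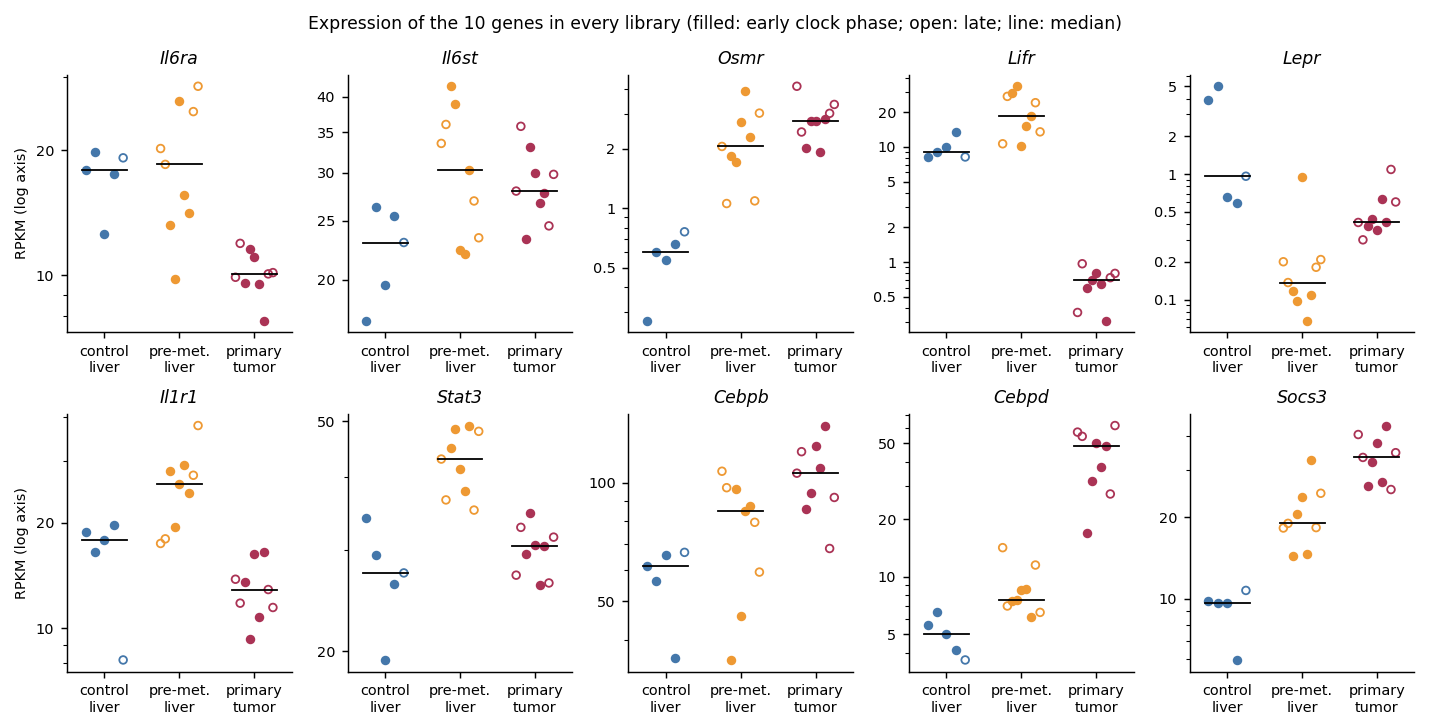
RPKM (log axis) of the 10 genes in every library of control liver (n = 5), pre-metastatic liver (n = 9), and primary tumor (n = 9). Filled points are mice of the early clock phase, open points of the late phase, and lines are medians. *Osmr*, *Stat3*, and *Socs3* of all 9 pre-metastatic livers lie above all 5 control livers, and *Lifr* of all tumors lies below 1 RPKM.

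The first comparison asked how the liver of a tumor-bearing mouse differed from that of a sham-operated mouse before metastasis. Of the 10 genes, 7 were higher in pre-metastatic liver (*Osmr*, *Socs3*, *Lifr*, *Cebpd*, *Il1r1*, *Stat3*, *Il6st*) and *Lepr* was lower at an adjusted *p* under 0.05, while *Cebpb* and *Il6ra* did not pass. Of all 16987 genes tested, 31.0% passed, 17.7% higher and 13.3% lower. The median log2 fold change was 0.63 over the 6 receptors, *Lepr* and *Il1r1* among them, and 0.73 over the 3 transcription factors, against 0.01 over all genes tested. The RPKM ranges of the 2 groups did not overlap for *Osmr*, *Stat3*, and *Socs3*, all higher, as was the case for 4.85% of all genes, and for 0 of the 10 genes in the lower direction, against 6.09% of all genes. In bulk tissue, fewer cells of a type and less RNA per cell cannot be told apart.

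*Osmr*, the private chain of the oncostatin M receptor, rose the most. Its RPKM was 0.271, 0.601, 0.551, 0.661, and 0.761 in control livers C1, C4, C5, C6, and C7, and from 1.06 through a median of 2.05 to 3.91 in pre-metastatic liver. Every pre-metastatic liver lay above every control liver, with M2 (1.06) and M10 (1.09) lowest and M7 (3.91) highest. The fold change was 4.24 (log2 2.08 ± 0.36, SE, adjusted *p* = 0.00061 by edgeR), which placed *Osmr* at the 96.7th percentile of all genes tested.

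*Lifr*, the receptor chain for LIF that also carries CT-1 and CNTF signals, rose 2.15-fold (log2 1.11 ± 0.25, adjusted *p* = 0.0036). Control livers had 8.18, 8.99, 9.89, 13.4, and 8.18 RPKM, and pre-metastatic livers 10.1 to 33.6 with a median of 18.4. The groups overlapped through control liver C6 and pre-metastatic livers M1 and M6, and the spread among the tumor-bearing mice was wide, with M5, M4, and M2 at 27.5 RPKM or more. *Il6st*, the shared gp130 chain, had 17.1, 26.4, 19.6, 25.5, and 23.0 RPKM in control liver and 22.05 to 41.6 (median 30.4) in pre-metastatic liver, so that 6 of 9 pre-metastatic livers lay above all controls. Its fold change was 1.44 (log2 0.53 ± 0.14, adjusted *p* = 0.0086), and the call did not hold on library totals (adjusted *p* = 0.055, edgeR) or in limma on log2(RPKM + 1) (adjusted *p* = 0.068).

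*Il6ra*, the private chain of the IL-6 receptor, had 17.9, 19.8, 12.6, 17.5, and 19.2 RPKM in control liver and 9.82 to 28.5 (median 18.5) in pre-metastatic liver. The pre-metastatic livers lay on both sides of the controls, with M10, M6, M12, and M1 above and M5 below all of them. The log2 fold change was 0.24 ± 0.26 (95% interval -0.27 to 0.75, adjusted *p* = 0.51), and it was -0.00056 in the early-phase livers alone. The gene overlaps an antisense gene, and the strand setting of the counting is not given in the sources used here, so reads of both cannot be told apart.

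*Il1r1*, the signaling receptor for IL-1, stood at 18.8, 16.5, 17.8, and 19.7 RPKM in control livers C1, C4, C5, and C6 and at 8.14 in C7. The pre-metastatic livers had 17.4 to 37.7 RPKM with a median of 25.8, and 6 of them exceeded every control. The fold change was 1.67 (log2 0.74 ± 0.25, adjusted *p* = 0.035), and the call was lost without C4, C5, C7, M4, M7, or M12, with the largest adjusted *p* without C7 (0.074).

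*Lepr*, the leptin receptor, was the only one of the 10 genes that fell. Control livers C1 and C4 had 3.93 and 5.01 RPKM, and C5, C6, and C7 had 0.652, 0.591, and 0.961. Of the pre-metastatic livers, 8 had 0.0679 to 0.208 RPKM, below every control, and M6 had 0.945. The group medians were 0.961 and 0.137, and the fold was 8.93 lower in pre-metastatic liver (log2 -3.16 ± 0.67, adjusted *p* = 0.0026). Leaving out each liver in turn kept the call (log2 fold changes -3.94 to -2.65), but without both C1 and C4, a choice made after the values were seen, the log2 fold change was -1.49 and no longer passed (adjusted *p* = 0.13). All isoforms of the receptor are summed in the count.

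Among the intracellular genes, *Stat3* separated the groups completely. It had 34.0, 29.3, 19.3, 26.2, and 27.3 RPKM in control liver and 35.1 to 49.2 (median 43.0) in pre-metastatic liver. The 1.66-fold difference (log2 0.73 ± 0.14, adjusted *p* = 0.0017) was narrow at its closest, since control C1 (34.0) lay just under M10 (35.1).

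*Socs3*, the inhibitor that STAT3 induces against its own receptors, had 9.86, 9.63, 9.63, 5.96, and 10.7 RPKM in control liver and 14.3 to 32.6 (median 19.0) in pre-metastatic liver. All pre-metastatic livers lay above all controls, with M8 (32.6) highest and M4 (14.3) lowest. The fold change was 2.40 (log2 1.26 ± 0.21, adjusted *p* = 0.00049), the smallest adjusted *p* of the 10 genes.

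*Cebpd* rose 1.83-fold (log2 0.87 ± 0.21, adjusted *p* = 0.0067), from 5.59, 6.52, 4.99, 4.12, and 3.66 RPKM in control liver to 6.16 to 14.2 (median 7.58) in pre-metastatic liver. M1 (14.2) and M10 (11.5) stood above the other 7 pre-metastatic livers, which had at most 8.62, and M8 and M12 overlapped with control C4. *Cebpb* had 61.7, 56.4, 65.5, 36.0, and 66.6 RPKM in control liver and 35.5 to 107 (median 84.6) in pre-metastatic liver. The lowest of all livers was M4 (35.5), next to control C6 (36.0), and 6 of 9 pre-metastatic livers exceeded all controls. The log2 fold change of 0.49 ± 0.23 did not pass (adjusted *p* = 0.11), but it was 0.59 with an adjusted *p* of 0.023 without M4.

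**Figure D2:**
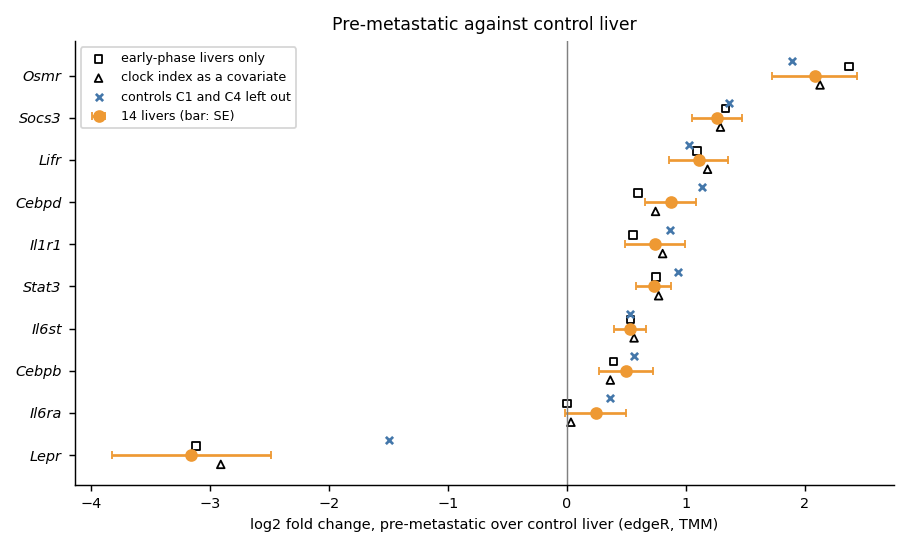
Log2 fold change of pre-metastatic over control liver for the 10 genes (edgeR, TMM). Circles with SE bars use 14 livers, squares the 9 early-phase livers, triangles the clock index as a covariate, and crosses omit controls C1 and C4. *Lepr* moves the most, from -3.16 to -1.49 without C1 and C4, and *Cebpd* lies between 0.60 (early-phase livers) and 1.13 (without C1 and C4).

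The clock phases were unevenly divided, with 4 of 9 pre-metastatic livers and 1 of 5 control livers late, and whether phase went with group was not tested. Among the 9 early-phase livers, the same 8 genes passed, with log2 fold changes of 2.37 for *Osmr*, 1.33 for *Socs3*, 1.09 for *Lifr*, 0.75 for *Stat3*, and -3.12 for *Lepr*, although *Il6st* only just passed (adjusted *p* = 0.0495), against 25.1% of all genes (14.4% higher, 10.7% lower). With the clock index as a covariate, the count was again 7 higher and 1 lower, against 30.1% of all genes (16.9% higher, 13.2% lower). Leaving out each liver in turn gave 7 or 8 genes.

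Markers of other cells moved with the groups. All 4 Kupffer cell markers rose, with a summed RPKM of 54.5 to 111 in control and 110 to 313 in pre-metastatic liver, as did all 5 monocyte and macrophage markers (9.99 to 23.1 against 20.4 to 56.7) and 4 of 5 neutrophil markers tested (6.24 to 17.7 against 6.75 to 118). Of the hepatocyte markers, *Cps1* and *Hnf4a* fell and the other 3 tested did not pass. In fibroblasts 2 of 6 markers rose, in cholangiocytes 2 of 4, in sinusoidal endothelium 1 of 5, in T cells 1 of 5, and in stellate cells 0 of 5. The share of all genes tested was 17.7% higher and 13.3% lower. None of the markers was at 0 throughout a liver group, and the part of these cells in the differences of the 10 genes was not tested.

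The other genes of the pathway, 63 in 7 lists, showed 28 higher and 2 lower of the 55 tested. Of all genes tested, 17.7% were higher and 13.3% lower. Acute-phase genes made up 14 of the 28. Acute-phase proteins of the hepatocyte, the output of the pathway, were higher for 14 of 15 with a median log2 fold change of 1.42. *Orm2*, an orosomucoid, rose from 14.4 to 45.0 RPKM in control liver to 189 to 1809, *Apcs*, serum amyloid P, rose 2.80 on the log2 scale, and *Orm1* rose 2.51. *Serpina3n* was the exception (log2 0.43 ± 0.41, adjusted *p* = 0.45). Among early STAT3 targets 5 of 10 rose and none fell, led by *Junb* (log2 1.54), *Timp1* (3.48), and *Steap4* (1.88). Of the other feedback genes and inhibitors 2 of 8 rose, the phosphatase gene *Ptpn1* (log2 0.82, adjusted *p* = 0.0012) and *Socs1* (log2 1.14, adjusted *p* = 0.037). Of 9 kinases and signal transducers 5 rose, among them *Stat5a* (log2 0.89) and the JAK family kinase gene *Tyk2* (log2 0.39), but only 2 on library totals, on which 1 feedback gene and 3 early targets rose. Of the other receptor chains tested, the decoy receptor *Il1r2* rose (log2 2.14, adjusted *p* = 0.045) and *Cntfr*, the CNTF receptor chain, fell (log2 -1.02, adjusted *p* = 0.0011). *Il1r2* rested on only 1 to 12 counts in control liver and 3 to 66 in pre-metastatic liver, with ranges that overlapped. Of the other C/EBP genes tested, *Ddit3*, a stress-induced factor, fell (log2 -1.69, adjusted *p* = 0.017), and *Cebpa*, the main hepatocyte member, had a log2 fold change of -0.58 that did not pass (adjusted *p* = 0.075).

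The second comparison set the primary tumor against the pre-metastatic liver of the same 9 mice. With TMM, 1 of the 10 genes was higher in tumor (*Cebpd*) and 8 were lower, and on library totals 4 were higher (*Cebpd*, *Lepr*, *Socs3*, *Cebpb*) and 4 lower (*Lifr*, *Il1r1*, *Il6ra*, *Stat3*). The test called 83.3% of the 19749 tested with TMM (43.8% higher, 39.5% lower) and 88.9% of them on library totals (67.6% higher, 21.3% lower). Only *Cebpd*, *Lifr*, *Il1r1*, *Il6ra*, and *Stat3* therefore had a called direction that was the same under both scalings. RPKM, itself on library totals, did not overlap between the groups for *Cebpd* in the higher direction, against 52.9% of all genes, and for *Lifr*, *Stat3*, and *Il1r1* in the lower direction, against 14.2% of all genes. With the mouse as a block, the same 9 genes passed.

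*Lifr* showed the largest difference of the 10 genes. The tumors had 0.311 to 0.969 RPKM with a median of 0.693, far under the lowest pre-metastatic liver (10.1), and the level was lower in tumor in 9 of 9 mice. The tumors had 68.5 times less with TMM (log2 -6.10 ± 0.28, adjusted *p* = 9.5e-14), and the log2 fold change was -4.94 on library totals. *Il1r1* had 9.35 to 16.5 RPKM in tumor (median 12.9), under every pre-metastatic liver, with a log2 fold change of -2.17 ± 0.18 with TMM and -0.96 on library totals. *Il6ra* had 7.79 to 11.9 RPKM in tumor (median 10.1), lower than in the liver of the same mouse in 8 of 9 mice, with M5 the exception (log2 -2.12 ± 0.20 with TMM and -0.90 on library totals). *Stat3* had 26.0 to 34.7 RPKM in tumor, below the liver in 9 of 9 mice (log2 -1.70 ± 0.09 with TMM and -0.52 on library totals).

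On RPKM, and so on library totals, *Cebpd* was higher in tumor than in the liver of the same mouse in 9 of 9 mice. Its RPKM in tumor was 16.9 to 61.9 (median 48.2), and even the lowest tumor, that of M4, lay above the highest pre-metastatic liver (14.2). On this scale 52.9% of all genes were higher without overlap, and single mice were not compared with TMM. The log2 fold change was 1.13 ± 0.23 with TMM (adjusted *p* = 0.00012) and 2.31 on library totals.

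The direction of *Socs3* depended on the scaling. Tumor RPKM was 25.3 to 43.6 (median 33.3) and exceeded the liver of the same mouse in 9 of 9 mice, with a log2 fold change of 0.69 on library totals (adjusted *p* = 0.00025), but with TMM it was -0.50 ± 0.16 (adjusted *p* = 0.0067). *Cebpb* had 68.1 to 140 RPKM in tumor, above the liver in 6 of 9 mice, and its log2 fold change was 0.44 on library totals and -0.74 with TMM. *Osmr* had 1.92 to 4.14 RPKM in tumor (median 2.78), above the liver in 8 of 9 mice, with a log2 fold change of 0.35 on library totals that did not pass (adjusted *p* = 0.14) and of -0.86 with TMM (adjusted *p* = 0.0038). *Il6st* ranged from 23.4 to 35.8 RPKM in tumor, inside the range of pre-metastatic liver, and was lower with TMM (log2 -1.26 ± 0.11) but not on library totals (log2 -0.09, adjusted *p* = 0.53). *Lepr* had 0.299 to 1.09 RPKM in tumor and a log2 fold change of -0.07 with TMM (adjusted *p* = 0.89) but 1.16 on library totals (adjusted *p* = 0.017). Here 1 liver decided the value with TMM, since *Lepr* was higher in tumor without M6 (log2 0.71, adjusted *p* = 0.032), the liver with 0.945 RPKM. Over all genes tested, the median log2 fold change was 1.30 on library totals and 0.13 with TMM. With all libraries, *Socs3*, *Cebpb*, *Osmr*, *Il6st*, and *Lepr* lay below this median under both scalings. The counts of mice are on RPKM and so on library totals.

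**Figure D3:**
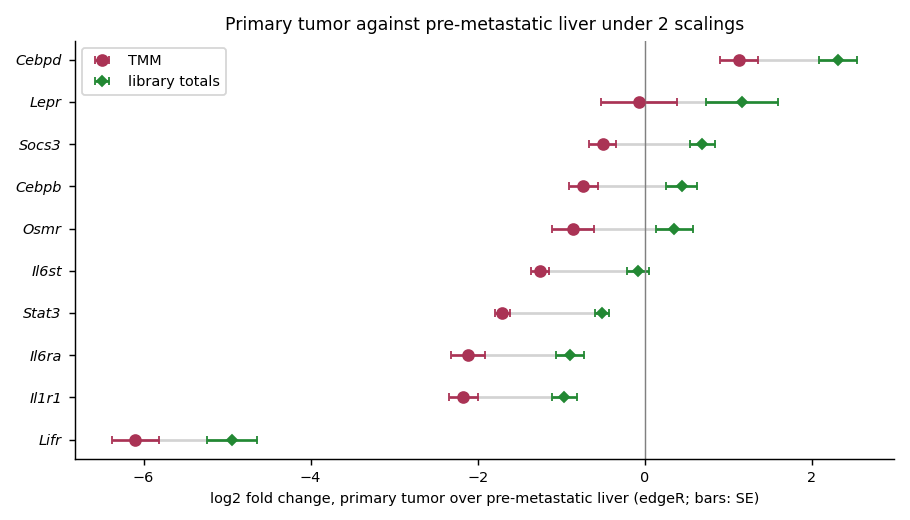
Log2 fold change of primary tumor over pre-metastatic liver for the 10 genes, scaled by TMM (circles) and by library totals (diamonds), with SE bars (edgeR, 9 libraries each). Every value moves to the right on library totals. *Cebpd* stays above 0 and *Stat3*, *Il6ra*, *Il1r1*, and *Lifr* stay below 0 under both, while *Socs3*, *Cebpb*, *Osmr*, and *Lepr* cross it.

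Against control liver, 3 of the 10 genes were higher in tumor with TMM (*Cebpd*, *Osmr*, *Socs3*) and 6 lower, and 5 were higher and 3 lower on library totals. The background was 82.3% of 19320 genes with TMM (44.2% higher, 38.1% lower) and 87.9% on library totals (66.6% higher, 21.4% lower). The median log2 fold change over all these genes was 0.18 with TMM and 1.26 on library totals. *Cebpd* (log2 2.01 with TMM, 3.10 on library totals), *Osmr* (1.24 and 2.30), and *Socs3* (0.78 and 1.86) were higher under both scalings. *Lifr* (log2 -4.97 with TMM, -3.88 on library totals), *Lepr* (-3.23 and -2.12), and *Il6ra* (-1.86 and -0.77) were lower under both. *Il1r1* was lower with TMM (log2 -1.41) but did not pass on library totals (log2 -0.32, adjusted *p* = 0.10), *Stat3* was lower with TMM (log2 -0.96) but not on library totals (log2 0.13, adjusted *p* = 0.28), *Il6st* changed direction (log2 -0.71 and 0.37), and *Cebpb* did not pass with TMM (log2 -0.22, adjusted *p* = 0.23) but was higher on library totals (log2 0.87). RPKM did not overlap for *Osmr*, *Socs3*, *Cebpb*, and *Cebpd* in the higher direction (56.4% of all genes) and for *Il6ra* and *Lifr* in the lower direction (17.1%). The tumors are the same as in the comparison with pre-metastatic liver, and the controls the same as in the liver comparison.

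Ratios within a library do not depend on the scaling. The ratio of *Osmr* to *Lifr*, whose products both pair with gp130, had a median of 0.0557 in control liver (0.0331 to 0.0931), 0.125 in pre-metastatic liver (0.0385 to 0.270), and 4.004 in tumor (2.51 to 11.3), so the tumors did not overlap with any liver. The ratio of *Socs3* to *Stat3* had a median of 0.328 in control liver (0.227 to 0.498), 0.511 in pre-metastatic liver (0.319 to 0.664), and 1.04 in tumor (0.886 to 1.49), again with the tumors above every liver and with the livers overlapping. *Il6ra* over *Il6st* had medians of 0.753, 0.602, and 0.354 in the same order, and the pre-metastatic livers (0.252 to 1.22) spanned the tumors (0.280 to 0.411).

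In the tumors *Il11* had 4.10 to 27.5 RPKM, *Lif* 2.07 to 4.21, *Osm* 0.806 to 7.01, *Il6* 0.407 to 2.61, *Clcf1* (cardiotrophin-like cytokine) 4.27 to 8.96, and *Il1b* 4.39 to 31.0. In both liver groups *Il6*, *Il11*, *Lif*, and *Osm* stayed at or under 0.150 RPKM, with at most 26 counts in a library. With TMM, 7 of the 10 ligands tested were higher in tumor than in pre-metastatic liver and 2 were lower, *Ctf1* (cardiotrophin 1, 0.564 to 1.38 RPKM in tumor against 1.95 to 3.42 in pre-metastatic liver) and *Il1a*, and on library totals 8 were higher and 2 lower. Of all genes, 43.8% were higher and 39.5% lower with TMM, and 67.6% higher and 21.3% lower on library totals. The 8 of 10 ligands on library totals lay near the share of all genes, and the 7 of 10 with TMM lay above it. The median log2 fold change of the ligands was 2.57 with TMM and 3.74 on library totals, against 0.13 and 1.30 over all genes. Of the 5 ligands tested between the livers only *Il1b* was called, higher in pre-metastatic liver (0.915 to 2.68 RPKM against 0.382 to 1.02, log2 1.24, adjusted *p* = 0.0043), while the *Il6* ranges overlapped (0 to 0.0798 in control and 0 to 0.150 in pre-metastatic liver). The leptin gene *Lep* had at most 16 counts in any library and was not tested.

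**Figure D4:**
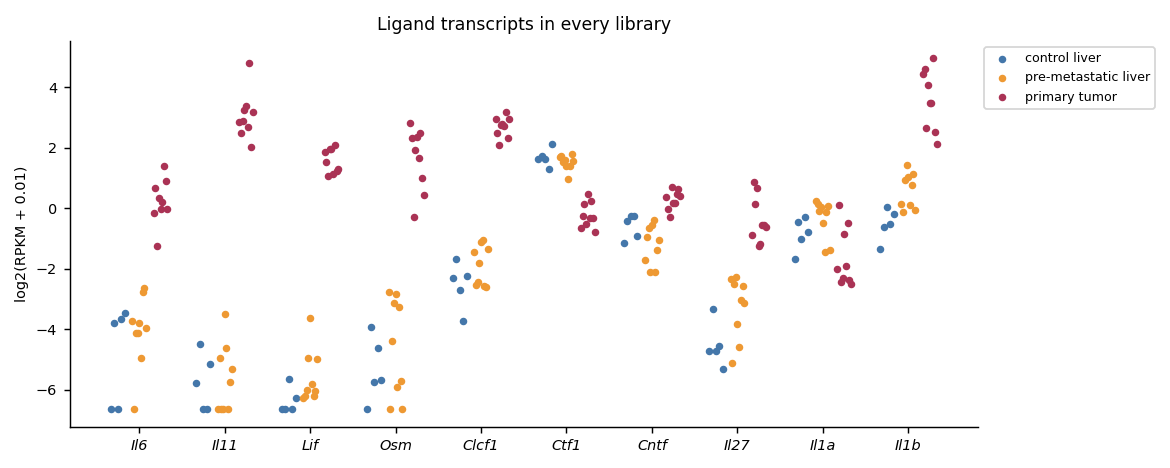
Log2(RPKM + 0.01) of 10 ligand genes in every library, colored by group. Libraries with no count lie on the lowest row. Tumor values of *Il6*, *Il11*, *Lif*, *Osm*, *Clcf1*, *Il27*, and *Il1b* lie above all livers, and those of *Ctf1* lie below.

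Of the remaining pathway genes in tumor against pre-metastatic liver, all 15 acute-phase genes were lower under both scalings, with *Orm2* at 0 to 3.82 RPKM in tumor. *Socs1* (18.2 to 36.1 RPKM in tumor against 0.567 to 2.74) and *Pias3*, an inhibitor of STAT3, were higher under both scalings (log2 with TMM 3.07 and 1.68), and *Cish*, a further SOCS family gene, was lower with TMM (log2 -3.78), with a median of 0.784 against 2.97 RPKM. *Cebpa* stood at 8.40 to 23.1 RPKM in tumor against 97.3 to 304 in pre-metastatic liver. Among early STAT3 targets 7 of 10 were higher and 2 lower with TMM, and 8 were higher and 2 lower on library totals, where 67.6% of all genes were higher. *Timp1* stood at 189 to 666 RPKM in tumor against 0.982 to 6.58 in pre-metastatic liver, whereas *Steap4* stood at 0.979 to 3.63 against 88.0 to 290. Monocyte and macrophage markers summed to 140 to 268 RPKM in tumor and fibroblast markers to 369 to 677, against at most 56.7 and 155 in pre-metastatic liver, and the part of these cells in the tumor values of the 10 genes was not tested.

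The 9 pre-metastatic livers differed in the strength of the acute-phase response, and the next question was whether the 10 genes varied with it. An acute-phase index, the mean of the standardized log2(RPKM + 1) of the 15 acute-phase genes, ran from -1.37 in M2 and -1.29 in M10 to 1.13 in M7. *Osmr* rose with the index (Spearman's rho 0.917, exact permutation *p* = 0.00131, adjusted *p* = 0.0131 over the 10 genes; Pearson's r 0.921, exact *p* = 0.000267, adjusted *p* = 0.00267). Without the 2 livers farthest from the median (M2 and M10), r was 0.791 (exact *p* = 0.0321) and rho was 0.821 (adjusted exact *p* = 0.114). With ranks centered within each clock phase rho was 0.905 (exact *p* = 0.00799, adjusted *p* = 0.0469). The rank correlation no longer passed after adjustment when M2, M4, M5, M7, or M10 was left out (rho 0.881, adjusted exact *p* = 0.0724 each).

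*Lifr* ran the other way. Its rho was -0.767 (exact *p* = 0.0214, adjusted *p* = 0.107) and its r was -0.765 (exact *p* = 0.0226, adjusted *p* = 0.113), so it did not pass after adjustment, and r was -0.806 without M2 and M10. With ranks centered within the clock phases, rho was -0.895 and passed (adjusted exact *p* = 0.0469). *Il6st* had a rho of -0.667 (adjusted exact *p* = 0.196) and an r of -0.516. *Socs3* had a rho of -0.03 and an r of 0.0879, *Stat3* of 0.133 and 0.333, and *Il6ra*, *Lepr*, *Cebpb*, *Cebpd*, and *Il1r1* had rho values from -0.20 to 0.317, none of which passed. The *Socs3* level of M8 (32.6 RPKM) was the highest and that of M7 (14.7 RPKM), the liver with the highest index, the second lowest.

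**Figure D5:**
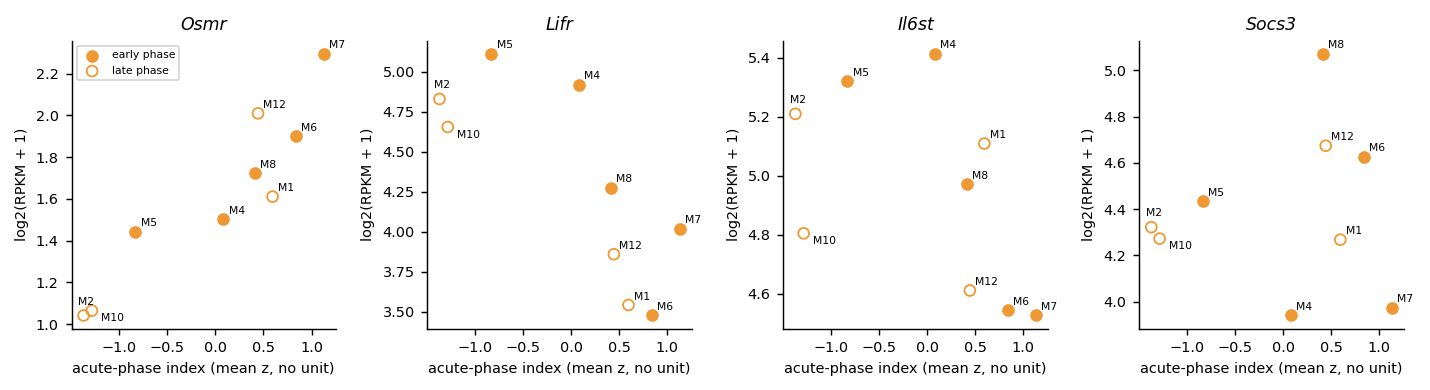
Log2(RPKM + 1) of *Osmr*, *Lifr*, *Il6st*, and *Socs3* against the acute-phase index (mean of standardized values, no unit) in the 9 pre-metastatic livers, named by mouse. Filled points are early-phase and open points late-phase livers. *Osmr* rises with the index (rho 0.917), *Lifr* falls (rho -0.767), and *Socs3* has no visible trend (rho -0.03).

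Liver *Socs3* was also set against 6 ligand transcripts in the tumor of the same mouse, and none of the 6 rank correlations passed after adjustment. The strongest was with *Lif* (rho 0.75, exact *p* = 0.0255, adjusted *p* = 0.133; r 0.704, adjusted *p* = 0.0681), and without M4 and M8, r was 0.432. *Il11* had a rho of 0.65 (adjusted exact *p* = 0.133) and an r of 0.795 (adjusted exact *p* = 0.0681), and without M8 and M10 r was 0.675. *Clcf1* had a rho of 0.667 (adjusted exact *p* = 0.133) and an r of 0.733, which was 0.325 without M4 and M8. *Il6* (rho 0.483, r 0.612), *Osm* (rho 0.333, r 0.385), and *Il1b* (rho 0.25, r 0.341) did not pass before adjustment either. Without M1, *Lif* and *Clcf1* passed (adjusted exact *p* = 0.0461 and 0.0134), and without M12, *Lif* passed (adjusted exact *p* = 0.0274). For each ligand, the 2 mice left out were those farthest from the median of that ligand in the tumors. With all 9 mice, r with *Lif*, *Clcf1*, and *Il6* rested in part on M4 and M8, and r with *Il6* was -0.305 without them. The liver of M4 also had the lowest *Socs3*, and that of M8 the highest.

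The variation among livers was described after subtracting the group means, over 14 livers that share their group, depth, and clock phase structure. The highest correlation within the 10 genes was between *Il6st* and *Lifr* (Pearson's r 0.647), and the lowest between *Il6ra* and *Lifr* (r -0.598). Across all tested genes, the pattern of *Osmr* was most like those of *D10Wsu102e* (r 0.860), *A630089N07Rik*, and *Cxcl14*, a chemokine gene. *Lifr* was most like *Ugt2b1*, a hepatic glucuronosyltransferase gene (r 0.952), *Slc25a17*, and *2610507B11Rik*. *Il6st* was most like *Rasgrp3* (r 0.952), *Pgm5*, and *Dnase1l3*, a secreted DNase gene. *Il6ra* was most like its overlapping antisense gene (r 0.925), *Tram2*, and *Nrg4*. *Stat3* was most like *Bhmt* (r 0.821), *Ak1*, and *Lrg1*, an acute-phase gene. *Socs3* was most like *Gm10288* (r 0.870), *Ppp3cc*, and *Apmap*, *Cebpb* most like *Card14* (r 0.892), and *Cebpd* most like *Rasgef1b* (r 0.815). *Lepr* was most like *Crcp* (r 0.895) and *Cyp17a1*, and *Il1r1* was most like *Scara5*, a scavenger receptor gene (r 0.898).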

How the data were processed

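Libraries of oligo(dT)-selected RNA were made with the NEBNext Ultra kit. The submitters' processing notes name HISAT, HISAT2, HTSeq 0.6.0, and mm10, and the strand setting of the counting is not given in the sources used here. The authors deposited, for 48897 gene lines, the raw count in each library without normalization. RPKM values computed by the authors stood beside these counts, and dividing the counts by gene length and library total gave them again to within a relative 1.75e-06. Repeated symbols (2 lines) were summed, which left 48895, and all 46 columns were matched to a library by the mouse number in the labels.

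Each pair of groups was fitted separately with edgeR 4.0.16 in R 4.3.3 (TMM, quasi-likelihood test, two-sided) on genes that reached 10 counts in 5 or more of the libraries compared, with Benjamini-Hochberg adjustment over all genes tested and a threshold of 0.05. The SE is the log2 fold change divided by the root of F, and the 95% interval is 1.96 SE to each side. The alternatives were DESeq2 size factors or upper-quartile or total scaling in edgeR, DESeq2 1.42.0, limma 3.58.1 on log2(RPKM + 1) and log2(RPKM + 0.1), no filter, an exact rank-sum test, leaving out each library, early-phase livers only, the clock index as a covariate, and, for tumor against liver, the mouse as a block. The mouse number in the labels pairs tumor and liver. Once group means were removed, the mean correlation of tumor and liver over 19749 genes was 0.0395 for the same mouse and -0.00504 for different mice. Correlations across 9 mice have exact two-sided *p* values over all pairings (scipy 1.17.1). Likeness of genes was taken on log2 CPM. The early phase is a clock index (*Dbp*, *Per3*, *Ciart* against *Arntl*, *Npas2*, *Clock*) under 0.

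On simulated counts of these libraries with 200 genes changed 2-fold, edgeR recovered 117 with 9 false calls of 16987 genes for the livers. For tumor against pre-metastatic liver it recovered 118 with 4 false calls of 19749 genes, and for tumor against control liver 109 with 5 false calls of 19320 genes. On the measured counts, 83.3% of genes were called for tumor against pre-metastatic liver and 82.3% for tumor against control liver. The rate of false calls at such shares was not tested, with TMM or on library totals. Replicates are separate mice. Named pathway genes are, per list and comparison, up to 3 with the smallest adjusted *p*, the ligands set against *Socs3*, and exceptions to a count. One gene that this rule names is not reported here. The 10 genes and all lists were chosen with earlier results of these data known. Of the hepatocyte list, *Tf* was not matched and was not used here. Promoter windows and sequences come from RefSeq (GRCm38.p6).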

Additional observations from a re-analysis of the deposited data

Results flagged for a closer look

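In 4 of 30 groups of RPKM values (10 genes in 3 groups), the highest or lowest library stood far from the rest, measured as its gap to the nearest library over the range of the group (Dixon's test at 95%). Chance alone marks about 1 group in 20 where values are normally distributed, which was not tested for these untransformed RPKM values. *Lepr* was high in the pre-metastatic liver of M6, at 0.945 RPKM against at most 0.208 in the other 8. *Lepr* was also high in the tumor of M10, at 1.09 RPKM against at most 0.632 in the other tumors. *Socs3* was low in control liver C6, at 5.96 RPKM against 9.63 or more in the other 4. *Il1r1* was low in control liver C7, at 8.14 RPKM against 16.5 or more in the other 4, and C7 was also the only control liver of the late clock phase.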

How the results depend on the processing

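Of the counts of genes and of called genes among the 10, 59 values under other settings stayed within 1.5 times the reported ones and 3 did not. Without control livers C1 and C4, 3096 genes were called between the livers, and the number of the 10 genes that followed the acute-phase index was 0 without the 2 mice farthest from the median and 2 with ranks centered within the clock phases. Leaving out 1 library gave 4269 to 5302 genes and 7 to 8 of the 10 for the livers, 16253 to 16360 genes and 9 to 10 of the 10 for tumor against pre-metastatic liver, and 15551 to 15839 genes and 9 to 10 of the 10 for tumor against control liver, and gave 0 to 1 relations with the acute-phase index and 0 to 2 between liver *Socs3* and tumor ligands (0 with all mice). The share of higher genes among those called moved on library totals from 57.1% to 46.0% (39.3% in limma on log2(RPKM + 1)) between the livers, from 52.5% to 76.0% for tumor against pre-metastatic liver, and from 53.7% to 75.7% for tumor against control liver. In the fit with the mouse as a block, 16329 genes were called and the pairing changed no call among the 10 genes (*Lepr* log2 0.42). Directions turned on the scale of library totals, that is on library totals in edgeR, in limma on log2(RPKM + 1) and log2(RPKM + 0.1), and in the rank-sum test. Against pre-metastatic liver the log2 fold changes on these 4 were 0.35, 0.29, 0.41, and 0.35 for *Osmr*, 0.69, 0.68, 0.70, and 0.69 for *Socs3*, 0.44, 0.48, 0.49, and 0.44 for *Cebpb*, and 1.16, 0.31, 1.07, and 1.16 for *Lepr*. Against control liver they were 0.37, 0.36, 0.37, and 0.37 for *Il6st*, 0.13, 0.14, 0.15, and 0.13 for *Stat3*, and 0.87, 0.86, 0.87, and 0.87 for *Cebpb*. *Lepr* in tumor against pre-metastatic liver also turned with upper-quartile scaling (0.10), DESeq2 (0.61, adjusted *p* = 0.034), and no filter (0.0051), and ranged from -0.31 to 0.71 with 1 library left out. *Il6ra* between the livers was -0.00056 in early-phase livers. *Socs3* in tumor against pre-metastatic liver was not called with upper-quartile scaling (log2 -0.32, adjusted *p* = 0.064), and *Cebpb* against control liver was called without C6 (log2 -0.35, adjusted *p* = 0.041). Between the livers the rank-sum test did not call *Il6st* or *Il1r1* (adjusted exact *p* = 0.14 and 0.081). Of the correlations with the acute-phase index, rho of *Stat3* was -0.82 without 2 mice and -0.0197 within clock phases and ranged from -0.21 to 0.26 with 1 mouse left out, that of *Lepr* from -0.0714 to 0.60, of *Socs3* from -0.19 to 0.26, and of *Cebpb* from -0.45 to 0. The rho of liver *Socs3* with tumor *Il6* was -0.11 without 2 mice, and that with *Il1b* ranged from -0.0714 to 0.60. The cause of these changes was not tested. Depth limits *Il6*, *Il11*, *Lif*, and *Osm* in liver, which had at most 26 counts in a library.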
